A study of Mus musculus with 4 samples.

Results

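The circadian clock genes Arntl, Clock, Per1, Per2, Per3, Cry1, Cry2, Nr1d1, Nr1d2 and Dbp were followed in skeletal muscle of AMPKα2 knockout (KO) and wild-type (WT) mice. The 10 genes were chosen by name. All rows of the expression table with their symbols were taken, by site and summed per gene. Of the 10 genes, 8 were listed, with 39 of the 42207 start sites and 8 of the 9838 genes of the table. Cry1 and Dbp had no listed site and counted as not detected.

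The study compared 2 KO and 2 WT libraries to ask which transcript start sites change when AMPKα2 is missing. AMPKα2, the product of Prkaa2, is a catalytic subunit of AMP-activated protein kinase, a sensor of cellular energy. The mice were adult, about 8 weeks old, of the strain C57BL/6 and untreated. The KO mice were homozygous (AMPKα2-/-) and lacked a stretch of the catalytic domain in the whole body, not in muscle alone, and the WT mice were the controls of that line. The muscle was the gastrocnemius, the large calf muscle. RNA freed of ribosomal RNA was read from its 5′ ends with a whole transcriptome start site method (WTSS-seq), so that each read counted the beginning of an RNA or of a fragment of one. The time of day at which the muscle was taken was not given in the sources used here. Clock genes vary over the day, and the part of collection time in the values below was not tested.

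KO replicates 1 and 2 held 2900279 and 2303294 reads, and WT replicates 1 and 2 held 1300069 and 1568945. Both KO libraries were thus deeper. A site entered the table only when it held at least 10 reads over the 4 libraries, and a count of 3 reads was worth 1.03 to 2.31 cpm (reads scaled to a common library total) in a library. Counts were divided by the size factor of each library (normalized counts). Muscle fibre markers, 8 of 8 listed, summed to between 31101 and 40216 cpm in all 4 libraries, and none differed at an adjusted p under 0.1 in DESeq2. Macrophage markers, 3 of 4 listed and with Cd68 not listed, summed to 32.1 and 33.0 cpm in KO and to 83.8 and 64.4 in WT. Fibroblast markers, 6 of 6 listed, summed to 1463 and 1059 cpm in KO and to 1738 and 1582 in WT. In 3 of the 6 both KO libraries lay below both WT libraries and in 0 above, against 17.6% and 21.7% of all genes. Adipocyte markers, 6 of 6 listed, summed to 14521 and 19860 cpm in KO and to 17228 and 12557 in WT. Endothelial markers, 5 of 5 listed, summed to 159 and 123 cpm in KO and to 127 and 119 in WT. Schwann cell markers, 2 of 4 listed, summed to 8.62 and 19.97 cpm in KO and to 15.4 and 4.46 in WT. The groups overlapped in the adipocyte, endothelial and Schwann cell sums. Blood markers, 2 of 5 listed and with Hba-a2, Hbb-bs and Hbb-bt not listed, summed to 15.9 and 12.2 cpm in KO and to 11.5 and 8.29 in WT. No marker of these lists was called, and their part in the results was not tested. Prkaa2 itself held normalized counts of 149 and 183 in KO against 153 and 186 in WT, so its start reads did not set the genotypes apart. The deletion removes an inner part of the gene, and where its 19 sites lie relative to that part was not examined. The summed start reads are therefore no check of the labels. In RNA from whole muscle, fewer cells of a type and less RNA per cell cannot be told apart.

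The clock is a loop of transcription. ARNTL, also called BMAL1, pairs with CLOCK and binds E-boxes in the promoters of Per and Cry genes, whose proteins return to block the pair. The same boxes drive Nr1d1 and Nr1d2, which encode the receptors REV-ERBα and REV-ERBβ, and these repress Arntl through ROR elements. They also drive DBP and its relatives TEF and HLF, which act through D-boxes on the Per genes. Arntl and most E-box genes therefore peak at opposite times of day. Skeletal muscle has a clock of its own, which is known for its part in fuel use, and AMPK is known to phosphorylate CRY1.

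Promoters of 4 clock genes are printed because each holds a box of the loop and stands for a different limb of it. They run from 250 bases before to 50 bases after a start in the RefSeq table of GRCm38.p6, on the strand of the gene. Capitals mark an E-box (CACGTG) in Per1, an E′-box (CACGTT, here read on the other strand) in Cry2, D-boxes (TTATGTAA) in Per3 and a ROR element (TAGGTCA) in Arntl.
Per1 (chr11:69098699-69098998, plus strand): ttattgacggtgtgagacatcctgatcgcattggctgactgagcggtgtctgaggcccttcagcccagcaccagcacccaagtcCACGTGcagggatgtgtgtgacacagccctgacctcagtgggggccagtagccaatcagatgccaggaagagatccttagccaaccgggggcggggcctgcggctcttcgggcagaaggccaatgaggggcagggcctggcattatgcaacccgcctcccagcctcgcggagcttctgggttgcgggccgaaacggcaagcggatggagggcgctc
Cry2 (chr2:92434020-92434319, minus strand): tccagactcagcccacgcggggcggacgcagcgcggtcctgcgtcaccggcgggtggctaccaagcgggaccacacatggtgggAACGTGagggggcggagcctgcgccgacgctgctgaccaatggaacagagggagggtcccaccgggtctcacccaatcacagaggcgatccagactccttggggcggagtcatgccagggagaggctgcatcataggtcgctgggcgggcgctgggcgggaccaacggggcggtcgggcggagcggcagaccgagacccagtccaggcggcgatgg
Per3 (chr4:151044616-151044915, minus strand): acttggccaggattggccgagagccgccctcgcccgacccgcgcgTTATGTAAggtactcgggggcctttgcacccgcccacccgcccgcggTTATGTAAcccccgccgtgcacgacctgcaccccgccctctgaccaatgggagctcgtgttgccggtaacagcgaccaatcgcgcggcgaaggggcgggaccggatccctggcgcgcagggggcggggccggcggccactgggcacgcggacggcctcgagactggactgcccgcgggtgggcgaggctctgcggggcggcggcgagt
Arntl (chr7:113207261-113207560, plus strand): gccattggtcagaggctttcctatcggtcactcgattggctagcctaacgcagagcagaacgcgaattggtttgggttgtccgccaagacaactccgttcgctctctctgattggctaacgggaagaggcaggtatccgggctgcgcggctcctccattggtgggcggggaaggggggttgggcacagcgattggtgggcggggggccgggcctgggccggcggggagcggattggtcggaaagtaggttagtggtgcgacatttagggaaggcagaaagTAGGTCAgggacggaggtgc

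Of the 10 clock genes, 9 had a promoter in the table, and Per2 had none. The motifs were searched on both strands. A clock gene counted when any of its listed promoters held the motif, while the shares over all count single promoters. Clock has 3 listed promoters, and Arntl and Per1 have 2 each, so the counts and shares are not strictly alike. The E-box stood in the promoters of 2 clock genes, Per1 and Cry1, and in 7.15% of all 32851 promoters of that length. The E′-box stood in 3, Cry1, Cry2 and Nr1d1, and in 4.68% of all. The D-box (TTACGTAA or TTATGTAA) stood in Per3 alone, at 205 and 158 bases before the start, and in 1.06% of all. The ROR element (TAGGTCA or TGGGTCA) stood in Arntl alone, 30 bases after the second of its listed starts, and in 6.45% of all. Per1 has a second listed promoter, which held none of these letters.

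The Period genes, Cry2 and the REV-ERB genes had higher normalized counts in KO, and the activators of the loop did not stand apart. Both KO libraries lay above both WT libraries in 6 of the 8 listed clock genes, Per1, Per2, Per3, Cry2, Nr1d1 and Nr1d2. In the other two, Arntl and Clock, the groups overlapped. Per2 had no WT reads and was listed through its KO reads alone. Its 2.07 cpm in KO replicate 1 was below the 2.31 cpm that 3 reads are worth in WT replicate 1. Its place above WT was thus not resolved. Over all 9838 genes the KO libraries lay above in 21.7% and below in 17.6%, and in the 7527 genes with read totals within the range of the clock genes they lay above in 21.6%. The median log2 fold change of KO over WT was 1.62 over the 8 genes and 0.07 over all genes. It was 1.12 and 0.01 when genes at 0 in both WT libraries were set to their bound. No clock gene passed the test. DESeq2 gave an adjusted p for 4 of them and called 0, against 1.71% of the 4688 genes tested called higher and 0.96% called lower. Per1 and Cry2 had an unadjusted p under 0.05, both higher in KO. The quasi-likelihood test of edgeR tested 5 and called 0, against 0.54% of all tested genes called higher.

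**Figure D1:**
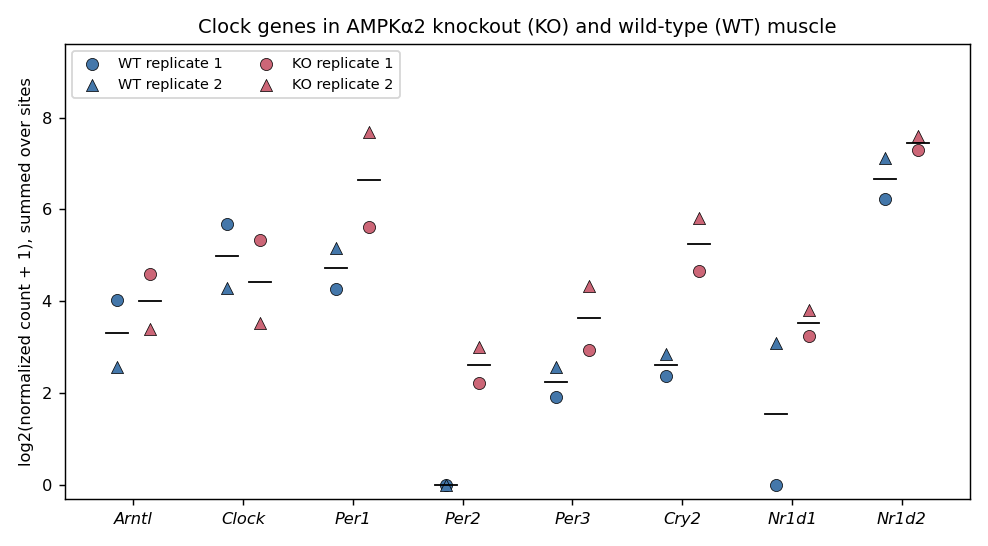
Points give log2 of the normalized count plus 1 of the 8 listed clock genes in each library, summed over the sites of a gene, with WT in blue, KO in red, and short lines for the group means of the 2 libraries. Both KO points lie above both WT points in Per1, Per2, Per3, Cry2, Nr1d1 and Nr1d2, and the groups overlap in Arntl and Clock.

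The activators were listed with 2 sites for Arntl and 6 for Clock. Arntl, the DNA-binding partner that drives the loop, held 38 and 11 reads in KO against 11 and 4 in WT, or normalized counts of 23.2 and 9.61 in KO against 15.4 and 4.98 in WT. Within each genotype, replicate 1 was the higher one, and the groups overlapped. The log2 fold change was 0.70 (SE 1.26), with an unadjusted p of 0.578 in DESeq2 and an adjusted p of 0.869 in edgeR. Without KO replicate 1 the value was -0.074. Both of its sites were intronic, and the one 52753 bases after the gene start carried 84.4% of the reads of the gene.

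Clock, the partner of Arntl, held normalized counts of 39.1 and 10.5 in KO against 50.5 and 18.7 in WT. Here too replicate 1 was the higher in each genotype. Its log2 fold change, -0.47 (SE 0.97) at an adjusted p of 0.987 in DESeq2, was smaller than its error, and it became -1.71 without KO replicate 1, 0.19 without KO replicate 2 and 0.42 without WT replicate 1. Of its 6 sites, 3 had 20 or more reads. An intronic site 80943 bases after the gene start held 10 and 3 reads in KO against 13 and 7 in WT. Another, at 55994 bases, held 15 and 1 in KO against 0 and 4 in WT. The last, 158 bases before the gene end, held 10 and 5 in KO against 14 and 1 in WT. None of the 6 sites had an adjusted p.

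Per1, a repressor that is also induced quickly by outside signals, was the more covered of the 2 clock genes with an unadjusted p under 0.05. It held 79 and 233 reads in KO against 13 and 28 in WT. The normalized counts were 48.3 and 204 in KO, a mean of 126 ± 110 (SD, n = 2), and 18.2 and 34.9 in WT, a mean of 26.6 ± 11.8 (SD, n = 2). KO exceeded WT by 2.24 (SE 0.78) on the log2 scale, with an unadjusted p of 0.00412 and an adjusted p of 0.130 in DESeq2 and of 0.259 in edgeR. The size rested on KO replicate 2. Without that library the log2 fold change was 0.87, and without KO replicate 1 it was 2.94.

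A single start carried most of this. An intronic site of Per1 at chr11:69095344-69095346 (GRCm38, plus strand), 237 bases after the start of the gene model and well upstream of both listed promoters, held 20 and 210 reads in KO against 0 and 0 in WT. It took 65.2% of all reads of the gene. The site entered the table through KO reads alone. The mean of the 2 KO libraries was at least 25.8-fold above a floor of 3 reads in each WT library. That mean was set by KO replicate 2, with normalized counts of 13.1 in KO replicate 1 and 181 in KO replicate 2. DESeq2 called the site (log2 fold change 8.72, SE 1.83, adjusted p = 0.000432), and edgeR did not (adjusted p = 0.117). Without KO replicate 2 the log2 fold change was 5.81 and the adjusted p in DESeq2 was 1.00, and among sites with 20 or more reads the adjusted p was 0.171. With the intronic sites left out, the log2 fold change of the whole gene was 1.31 and not called.

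Of the other 7 sites of Per1, 2 had 20 or more reads. The site within a transcript 180 bases after the gene start, close to the called one, held 14 and 5 reads in KO against 1 and 6 in WT, and the groups overlapped. An intronic site 6280 bases after the gene start held 10 and 1 reads in KO against 5 and 7 in WT, and both KO libraries were the lower in normalized counts. At 892 bases before the gene end, the one site of the gene that overlapped an exon in part held 13 and 4 reads in KO against 0 and 0 in WT. Not all starts of Per1 were thus higher in KO.

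Per2, the second Period gene, was listed with 1 intronic site, 35973 bases after the gene start. It held 6 and 8 reads in KO against 0 and 0 in WT, and entered the table through KO reads alone. Neither WT library held a read, but up to 3 reads there could not be told from 0 at this depth. Per3, a Period gene whose promoter above holds both D-boxes, held normalized counts of 6.72 and 19.2 in KO against 2.80 and 4.98 in WT. Its log2 fold change was 1.72 (SE 1.54, unadjusted p of 0.263 in DESeq2), and it was 0.79 without KO replicate 2 and 2.31 without KO replicate 1. The larger of its 2 intronic sites, 8061 bases after the gene start, held 1 and 22 reads in KO against 2 and 4 in WT, so that at this site the groups overlapped. Neither gene had enough reads for an adjusted p.

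Cry2, a cryptochrome that blocks CLOCK and ARNTL, had the largest fold change among the clock genes that DESeq2 could adjust. It held 40 and 63 reads in KO against 3 and 5 in WT. Normalized counts were 24.4 and 55.1 in KO, a mean of 39.7 ± 21.7 (SD, n = 2), and 4.21 and 6.23 in WT, a mean of 5.22 ± 1.43 (SD, n = 2). Every KO library was several times above every WT library. KO exceeded WT by 2.92 (SE 1.08) on the log2 scale, with an unadjusted p of 0.00693 and an adjusted p of 0.174 in DESeq2 and of 0.195 in edgeR. Without KO replicate 2 the difference was 2.23 on that scale and had no adjusted p, and without KO replicate 1 it was larger.

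As in Per1, an intronic start near the beginning of Cry2 was called. The site at chr2:92432827-92432839 (GRCm38, minus strand), 1252 bases after the gene start, held 22 and 37 reads in KO against 0 and 0 in WT. It entered the table through KO reads alone and took 53.2% of the reads of the gene. The mean of the KO libraries, at normalized counts of 14.4 and 31.9, was at least 6.15-fold above the same floor in WT. The log2 fold change was 6.65 (SE 2.07), with an adjusted p of 0.0606 in DESeq2 and of 0.123 in edgeR. The adjusted p in DESeq2 was 1.00 without KO replicate 2, 0.176 without WT replicate 1 and 0.330 without WT replicate 2, and without KO replicate 1 the site had no adjusted p. It was 0.230 without independent filtering. At the other end of the gene, a site within a transcript 363 bases before the gene end held 5 and 18 reads in KO against 0 and 0 in WT. In KO replicate 1 this was no more than 3 reads are worth in a WT library. Of the 2 remaining sites near that end, the larger held 3 and 6 reads in KO against 2 and 5 in WT, where the groups overlapped. Without the intronic site the log2 fold change of the gene was 1.89 and not called.

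Nr1d1, the gene of REV-ERBα, held 14 and 15 reads in KO against 0 and 6 in WT. The normalized counts of 8.55 and 13.1 in KO lay above those of 0 and 7.47 in WT by a small margin. The log2 fold change was 1.51 (SE 1.77, unadjusted p of 0.393 in DESeq2) and ranged from 0.53 without WT replicate 1 to 5.36 without WT replicate 2. An intronic site 2842 bases after the gene start held 11 and 3 reads in KO against 0 and 0 in WT. The site within a transcript 4620 bases after the gene start, the more covered one, held 3 and 12 in KO against 0 and 6 in WT.

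Nr1d2, the gene of REV-ERBβ, had the most reads and sites of the clock genes and the smallest difference of the 6 that lay higher in KO. It held 255 and 220 reads in KO against 53 and 110 in WT. Normalized counts were 156 and 192 in KO, a mean of 174 ± 25.8 (SD, n = 2), and 74.3 and 137 in WT, a mean of 106 ± 44.3 (SD, n = 2). The groups did not overlap, but the log2 fold change of 0.72 (SE 0.55) was not called by DESeq2 (adjusted p = 0.838) or edgeR (adjusted p = 0.702). It was 0.34 without WT replicate 1 and 1.20 without WT replicate 2.

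The 14 sites of Nr1d2 gathered at the end of the gene, 9 of them within 2500 bases of it. The most covered, 1304 bases before the gene end, held 107 and 56 reads in KO against 20 and 42 in WT and took 35.3% of the reads. The next in reads, 405 bases before the end, held 25 and 30 in KO against 4 and 24 in WT. The groups overlapped at both. The same held at 1228 bases before the end, with 18 and 26 reads in KO against 7 and 11 in WT, and at 241 bases, with 6 and 13 in KO against 0 and 5 in WT. KO lay above WT at 748 bases, with 19 and 7 reads against 3 and 3, at 711 bases, with 9 and 13 against 0 and 3, and further inside the gene, 23833 bases after its start, with 23 and 15 against 9 and 2. An intronic site 22699 bases after the gene start held 45 reads in KO replicate 2 and at most 3 in any other library. The intronic site at 14239 bases held 16 and 0 reads in KO against 0 and 11 in WT. The share that each site took of the gene did not differ (Simes test in edgeR over 5 sites, adjusted p = 1.00), against 1.77% of 2145 genes called. No other clock gene had sites enough for that test.

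**Figure D2:**
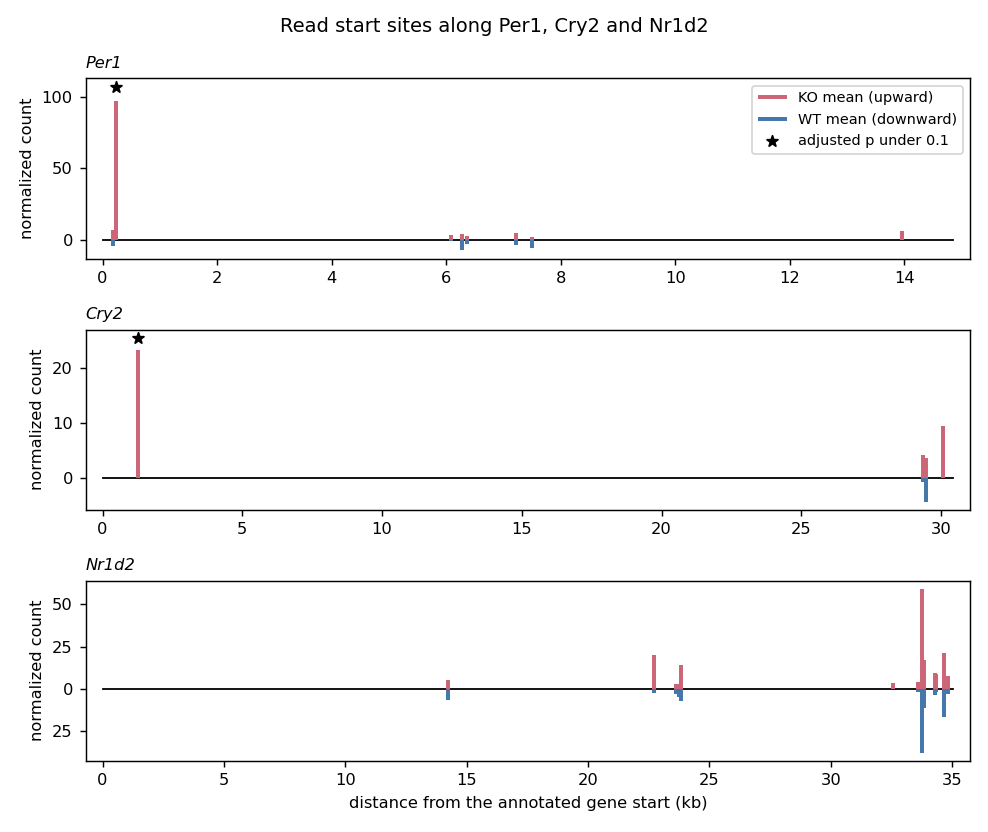
Each vertical line is a start site of Per1, Cry2 or Nr1d2, placed by its distance in kb from the annotated gene start, with the mean normalized count of the 2 KO libraries upward and of the 2 WT libraries downward, and a star marks a site called by DESeq2. The called sites of Per1 and Cry2 lie near the gene start with no WT reads, and the sites of Nr1d2 gather at the gene end in both groups.

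All 39 sites lay on the strand of their gene and overlapped no other annotated gene. Both KO libraries lay above both WT libraries in 11 of them, or 28.2%, against 22.2% over all sites. They lay below in 2, and the share below was not taken over all sites. Sites with no WT reads are among the 11, and these entered the table through KO reads alone. DESeq2 gave an adjusted p for 8 of the 39 and called 2, both higher in KO. Of all 11112 tested sites, 2.33% were called higher. Both called sites had no WT reads and were likewise listed through KO reads alone, so they are no independent evidence of a direction. WT held no reads at 9 of the 39 sites, or 23.1%, and KO at 0 of them. Over all sites these shares were 11.8% and 2.29%. WT was the shallower group, and the part of depth in these zeros was not tested.

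Few of the clock reads began at an annotated start. The starts counted were those of the gene models and of the promoters in the RefSeq tables. None of the 1381 reads fell from 250 bases before to 50 bases after such a start, which leaves a share of up to 0.277% (Wilson 95% interval, counting error only). Over the genes outside ribosomal RNA and the mitochondrial genome, 7.21% of reads fell there. Within 500 bases either side, 256 reads did, or 18.5%, all of them at the pair of Per1 sites near the start of its gene model, which lies upstream of its listed promoters, against 12.8% over those genes. Intronic sites gave 44.7% of the clock reads and 33.7% of the reads of all those genes. All reads of Arntl, Per2 and Per3 were intronic, as were 84.1% of those of Per1, but only 12.1% of those of Nr1d2. The printed promoters thus held no read start of their gene within the window.

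Dbp, an output gene that swings widely over the day in many tissues, and Cry1 gave no listed site. As the table begins at 10 reads over the 4 libraries, fewer reads than that at any one site cannot be told from none. The relatives of Dbp were read well. Tef held normalized counts of 224 and 229 in KO against 36.5 and 49.8 in WT. KO exceeded WT by 2.39 on the log2 scale (SE 0.55), at an adjusted p of 0.00173 in DESeq2 and of 0.0755 in edgeR. Both tests called it. Leaving out either KO library raised the adjusted p in DESeq2 to 0.237 or 0.232. Hlf held 297 and 373 in KO against 14.0 and 137 in WT, and its log2 fold change of 2.15 (SE 0.73) had an adjusted p of 0.118 in DESeq2 and of 0.338 in edgeR. The value rested on WT replicate 1, and without it the log2 fold change was 1.29 at an adjusted p of 0.445 in DESeq2. Without either KO library the adjusted p in DESeq2 was 0.651 or 0.931. Without WT replicate 2 the log2 fold change of Hlf was 4.55. Hlf was called with the intronic sites left out, at an adjusted p of 0.0399 in DESeq2. It was also called with the replicate number as a block, though same-numbered libraries share only a number. With that block the log2 fold change was 2.80 in DESeq2, at an adjusted p of 0.00565, and the adjusted p in edgeR was 0.0962. Bhlhe41, which encodes the E-box repressor DEC2, held 265 and 283 in KO against 74.3 and 82.2 in WT. Its log2 fold change was 1.81 (SE 0.50), with an adjusted p of 0.0206 in DESeq2 and of 0.158 in edgeR, and it was not called in DESeq2 without any 1 of the libraries, at adjusted p of 0.203 to 0.559. Ciart, a repressor of CLOCK and ARNTL, held 7 and 5 reads in KO against 0 and 0 in WT.

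**Figure D3:**
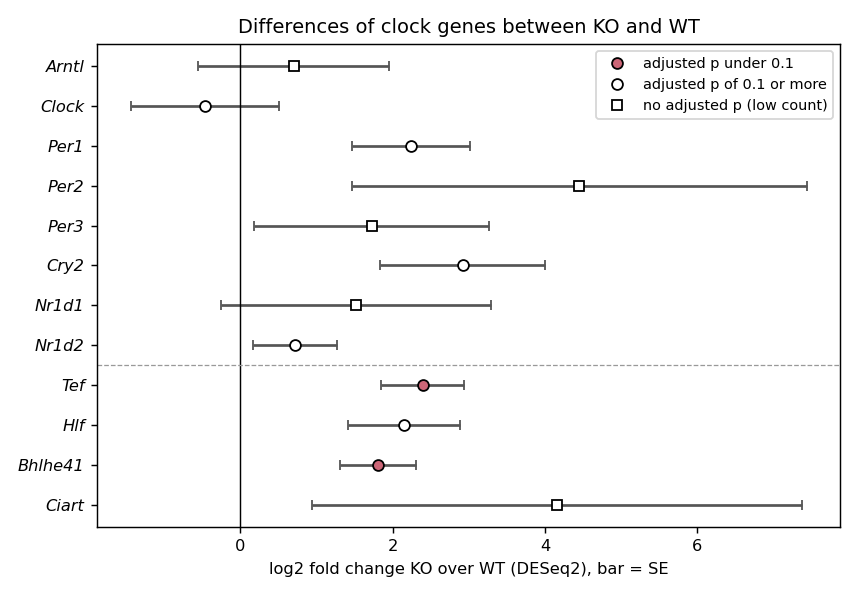
Points give the log2 fold change of KO over WT from DESeq2 with its SE as a bar, for the 8 listed clock genes above the dashed line and for Tef, Hlf, Bhlhe41 and Ciart below it, filled where the adjusted p was under 0.1 and square where none was given. Tef and Bhlhe41 are filled, and Clock alone lies below 0.

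Genes driven by E-boxes or D-boxes were set against genes of the phase of Arntl by summing their reads in each library, as a description. The driven set named Dbp, Tef, Hlf, Nr1d1, Nr1d2, Per1, Per2, Per3, Ciart and Bhlhe41. Of these 10, 9 were listed, and in all 9 both KO libraries lay above both WT libraries, against 21.7% of all genes. Per2 and Ciart had no WT reads and entered the table through KO reads alone. For Per2, 2.07 cpm in KO replicate 1 was below the 2.31 cpm that 3 reads are worth in WT replicate 1. The same held for Ciart at 2.17 cpm in KO replicate 2, so the place of both above WT was not resolved. Bhlhe40, the E-box driven paralog of Bhlhe41, was in the wider list but not in this set, and it went the other way, with normalized counts of 10.4 and 24.5 in KO against 16.8 and 39.9 in WT, where the groups overlapped. The sets were chosen with earlier results of these data known, so their sums are no independent evidence of a direction. Normalized counts of the 9 genes summed to 1014 and 1325 in KO and to 220 and 453 in WT. Tef, Hlf and Bhlhe41 supplied 787 and 885 of this in KO and 125 and 269 of it in WT. The 5 clock genes of the set summed to 223 and 435 in KO and to 95.4 and 184 in WT. In both sums the KO libraries lay above the WT libraries, for the 5 clock genes by a small margin between KO replicate 1 and WT replicate 2. The set of the Arntl phase named Arntl, Clock, Npas2, Cry1 and Nfil3, of which only Arntl and Clock were listed. Their sums were 62.3 and 20.1 in KO against 65.9 and 23.7 in WT, and the groups overlapped, with replicate 1 the higher in each genotype. The ratio of the driven set to the Arntl set in reads was 16.3 and 65.9 in KO against 3.34 and 19.2 in WT. With the 5 clock genes alone it was 3.58 and 21.7 in KO against 1.45 and 7.79 in WT. The groups overlapped in both ratios, with WT replicate 2 above KO replicate 1.

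**Figure D4:**
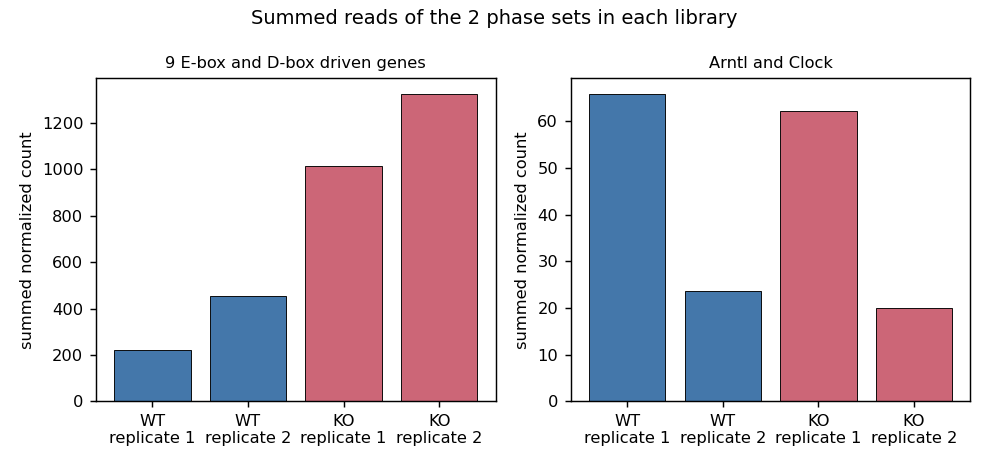
Bars give the summed normalized count in each library of the 9 listed genes driven by E-boxes or D-boxes (left) and of Arntl and Clock (right), on axes of different height that start at 0. The KO bars of 1014 and 1325 on the left stand above the WT bars of 220 and 453, while on the right the genotypes overlap.

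A wider list of 54 genes had 38 listed. It left out the 10 clock genes and named other genes of the loop, with kinases, ligases, cofactors and receptors. Subunits of AMPK were in it too, among them the targeted gene Prkaa2. DESeq2 gave 27 of them an adjusted p and called 2 higher, Tef and Bhlhe41, and 0 lower, against 1.71% and 0.96% of all genes tested. The quasi-likelihood test of edgeR tested 29 and called 1, Tef, against 0.54% called higher over all genes. Both KO libraries lay above both WT libraries in 15 of the 38 and below in 5, where all genes gave 21.7% and 17.6%. The median log2 fold change was 0.34, against 0.07 over all genes. The 5 genes of that list with the most reads were not called. Rora, which competes with REV-ERB at ROR elements and activates Arntl, held normalized counts of 1200 and 882 in KO against 416 and 503 in WT, and the groups did not overlap. KO exceeded WT by 1.18 on the log2 scale (SE 0.42), at an adjusted p of 0.159 in DESeq2. Csnk2a1, a kinase subunit, lay lower in KO at a log2 value of -0.75 (SE 0.46, adjusted p = 0.675 in DESeq2), and Sfpq, a partner of PER, stood at 0.35 (SE 0.47). The value of -3.08 (SE 2.10) of Prkag1, a subunit of AMPK, rested on WT replicate 1 and was 2.18 without that library.

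Ncor1, the corepressor through which REV-ERB acts, had a log2 fold change of 0.29 (SE 0.47) over all its 25 sites. The use of those sites differed (Simes test in edgeR over 10 sites, adjusted p = 0.0726). Ncor1 was the only gene of the wider list called in that test, which called 1.77% of 2145 genes. An intronic site of Ncor1 at chr11:62330252-62330258 held 0 and 0 reads in KO against 36 and 10 in WT. It was listed through WT reads alone and was called lower by DESeq2 (adjusted p = 0.0111). The most covered site of Ncor1, intronic too, held 110 and 186 reads in KO against 51 and 46 in WT. That site was not called (adjusted p = 0.949 in DESeq2).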

How the data were processed

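RNA 5′ ends of 2 AMPKα2 KO and 2 WT muscles were read by WTSS-seq. The authors deposited 1 table of raw read counts, with 1 row per start site and 1 column per library. The build was GRCm38.p5 per the submitters' processing notes. Mapping and clustering were described for the sister 3′ libraries, and whether the settings were the same here was not stated. The authors' class codes place a site in an intron (i), within a transcript (c) or in another exonic overlap (o). No molecular identifiers were described, so floors and intervals cover counting error only.

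Sites, and genes as sums of their sites, were compared with the Wald test of DESeq2 (1.42.0, R 4.3.3) over the whole table, following the study's methods. Size factors were medians of ratios, independent filtering was on, and calls had a Benjamini-Hochberg adjusted p under 0.1. Site use was tested with diffSpliceDGE of edgeR (4.0.16). The DESeq2 and edgeR fits and the test of site use were tested on simulated counts, and the other steps were not. Changes were planted only in well-covered features, so recovery at the low counts of most clock sites was not tested. With 2 libraries per group an exact permutation test cannot go below 0.333. The p-values rest only on these libraries, with the spread of each feature estimated in part from all features. Gene positions and promoters came from RefSeq (GRCm38.p6, whose primary chromosomes keep the coordinates of p5). Transcript lengths were not used, so levels were not compared between genes. Named were all 10 clock genes, their sites with 20 or more reads or called, the most covered site of each, and the 5 genes of the wider list with the most reads. Tef, Hlf, Bhlhe41 and Ciart, the other listed genes of the driven set, Bhlhe40 and the smaller sites given were described one by one after their values were seen. The clock genes and lists were chosen with earlier results of these data known. The alternatives were edgeR, other size factors and filters, a threshold of 0.05, each library left out, a replicate block and classes of sites left out.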

Additional observations from a re-analysis of the deposited data

How the results depend on the processing

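The count of clock genes called was 0 under every alternative run. The clock sites called, 2 in DESeq2, were 0 with edgeR, 1 without independent filtering, 1 with a minimum of 20 reads, 1 at a threshold of 0.05, and 0 to 1 when each library was left out in turn. Over all genes, 80 were called higher and 45 lower. With edgeR these were 33 and 21, and with each library left out 34 to 64 and 9 to 36. Over all sites, 259 were called higher and 98 lower. These were 48 and 32 with edgeR, 123 and 52 without independent filtering, and 28 to 227 and 16 to 84 with each library left out. Sites called higher were 170 with size factors from totals outside ribosomal RNA and mitochondria and 164 at a threshold of 0.05. Genes with changed site use, 38, were 71 with the gene-level F test, 15 at a threshold of 0.05 and 5 to 26 with each library left out. In an alternative chosen after seeing the data, intronic sites left out of all genes, 49 genes were called higher and 20 lower. The cause of these moves was not tested.

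Same-numbered libraries correlated at 0.0721 in their deviations over 11242 sites, and they share only a number. With the replicate number as a block, sites called higher were 145 and lower 50, clock sites called 0, and genes with changed use 12. The block with edgeR, chosen after seeing the data, called 1 site higher, 0 lower and 0 clock sites.

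For Arntl the log2 fold change was -0.074 without KO replicate 1, in a range of -0.074 to 1.73 with each library left out. That of Clock was 0.19 without KO replicate 2 and 0.42 without WT replicate 1, in a range of -1.71 to 0.42. That of Prkag1 was 2.18 without WT replicate 1, in a range of -4.22 to 2.18, and that of Ncor1 was -0.57 without intronic sites. The other listed clock genes, Per1, Per2, Per3, Cry2, Nr1d1 and Nr1d2, kept their direction under each alternative that gave a value. With 3 reads worth up to 2.31 cpm, a difference of Per2 or Ciart below that level was not detectable.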

Other observations

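The genes most like Nr1d2, the clock gene with the most reads, were taken by the Euclidean distance of log2(cpm + 1) centred over the 4 libraries, among 4687 genes. They were Usp7 (distance 0.102), Ddx60 (distance 0.110) and Pnpla7 (distance 0.110). Usp7 stood at 17.6 and 20.8 cpm in KO and at 7.69 and 14.7 in WT. With 4 libraries this likeness is a description, and no test was made.

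Tef, Hlf and Bhlhe41 were each read largely from 1 start. The main site of Tef, within a transcript 1339 bases before the gene end, held 313 and 230 reads in KO against 16 and 12 in WT, or 82.2% of the reads of the gene. It was called by DESeq2 and by edgeR (adjusted p = 0.0686). Another site of Tef, 2988 bases before the gene end, held 26 and 10 reads in KO against 9 and 22 in WT, and the groups overlapped. The main site of Hlf, 376 bases after the gene start, held 475 and 413 reads in KO against 10 and 104 in WT, or 96.9% of the reads of the gene. The main site of Bhlhe41 held 415 and 309 reads in KO against 50 and 66 in WT, or 95.8% of its reads, with an adjusted p of 0.0863 in DESeq2 and of 0.251 in edgeR. The promoters of Tef (both listed starts), Bhlhe41 and Ciart held the E-box CACGTG, with 3 copies in Ciart. It stood in 7.15% of all promoters. The listed promoter of Hlf held none of the motifs searched, nor did those of Dbp and Nr1d2 of the same driven set.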
